A study of Mus musculus with 18 samples.

Results

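The collagen genes were taken as every row of the expression table whose symbol is Col, a number, the letter a and a number, such as Col17a1. The rule gave 44 genes of 23951, and it used the symbols alone, with no measured value. The table holds RNA levels of epidermal cells sorted from mouse ear skin, in 18 libraries that form 6 groups of 3 mice each, as FPKM, in which the fragments mapped to a gene are scaled to its transcript length and to the size of the library. Bulge hair follicle stem cells (HF-SC) were gated as CD45- CD49f high CD34+ and basal keratinocytes (b-KC) as CD45- CD49f high CD34-, from epidermis separated with trypsin. The DKO* mice were of mixed background and carried K5-Cre-ERT, the mT/mG reporter, and both JunB and c-Jun as floxed alleles (f/f). In these mice GFP marked recombined, mutant cells, and Tom (tdTomato) marked cells that had not recombined. The control mice (Co) carried K5-Cre and the reporter with wild-type or heterozygous JunB and c-Jun. All mice were 8 weeks old, of either sex, received 4 daily intraperitoneal injections of 2 mg tamoxifen, controls included, and were sampled at day 7. The 4 DKO* populations came from the same 3 mice (814, 815 and 817), and both control populations from 3 others (810, 825 and 828). The K5 promoter directs Cre to basal epidermal and follicle cells, and the mT/mG reporter gives Tom colour to any cell in which Cre has not acted, whatever its type.

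Collagens are secreted or membrane proteins built of 3 chains wound into a triple helix, and each gene encodes 1 chain. The fibrillar collagens form the fibres of the dermis and are made mainly by fibroblasts. Type IV collagens form the sheet of the basement membrane, on which basal keratinocytes sit. Col17a1, a transmembrane collagen of the hemidesmosome, ties the basal cell to that sheet, and Col7a1 forms the anchoring fibrils that tie the sheet to the dermis. Loss of either of these causes skin blistering. In the hair follicle bulge, Col17a1 is known for its part in keeping the stem cells.

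By class, the 44 genes comprise 11 fibrillar, 8 basement membrane (type IV and the multiplexins Col15a1 and Col18a1), 1 anchoring fibril, 4 transmembrane, 6 beaded filament (type VI), 9 FACIT (collagens that bind to the surface of fibrils), 3 short chain network genes, and 2 others. Of these, 23 reached 1 FPKM in at least 3 of the 18 libraries and were tested. These were 5 fibrillar, 7 basement membrane, 1 anchoring fibril, 2 transmembrane, 2 beaded filament, 4 FACIT and 2 short chain genes. The 21 others stayed at or below 1.97 FPKM in every library, the highest being Col6a3 in HF-SC. Among the 23, 9 reached 1 FPKM in HF-SC libraries only (Col1a1, Col3a1, Col4a3, Col5a1, Col5a2, Col6a2, Col9a3, Col14a1 and Col15a1), and none in b-KC libraries only. Col15a1 reached it in HF-SC Tom alone. Such genes entered the test through the groups in which they are high, so the counts below describe these 23 genes and do not stand for the family.

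Depth is not given with FPKM values, but the spacing of low values implied 16500000 to 26300000 reads per library, with 76.6% to 81.2% of low values within 0.1 read of a whole number. At that depth 3 reads on a 5 kb transcript correspond to 0.0228 to 0.0364 FPKM. Basal keratinocyte markers were present in all 18 libraries (summed FPKM of the 5 markers at least 5594), while Cd34, the gated bulge marker, was 639.8 to 889 FPKM across HF-SC Co, 161 to 228 across HF-SC GFP, 259.6 to 319 across HF-SC Tom and 1.13 to 2.04 across b-KC Co. The targeted genes, measured over whole transcripts, were 436 to 463 FPKM (JunB) and 835 to 1086 FPKM (c-Jun) across HF-SC Co, 38.6 to 77.5 and 30.4 to 88.4 across HF-SC GFP, 251 to 402 and 308 to 614 across HF-SC Tom, 737 to 772 and 876 to 1000 across b-KC Co, 37.2 to 72.2 and 29.6 to 65.4 across b-KC GFP, and 208 to 397 and 163 to 400.4 across b-KC Tom. Krt14 was listed at 0 in 3 b-KC libraries of DKO* mice and Krt15 in 1 HF-SC Co library, though Krt14 was 2085 to 11448 and Krt15 155 to 11764 FPKM in all others. A listed 0 of this kind can be a failed estimate, and it lowers the marker sum of its library.

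Col17a1 was the highest collagen in each of the 18 libraries, with 46.5% to 88.5% of the summed collagen FPKM. In HF-SC Co it was followed by Col8a2 (178 ± 22.1 FPKM, SD, n = 3), Col6a1 (148 ± 0.646 FPKM) and Col18a1 (114 ± 19.5 FPKM). In b-KC Co it was followed by Col16a1 (21.3 ± 3.91 FPKM) and Col18a1 (18.5 ± 1.52 FPKM), which did not differ beyond their spread. In b-KC GFP the next highest after Col17a1 was Col23a1 (16.6 ± 3.95 FPKM). Summed over all 44 genes, collagen FPKM was 1671 to 1799 across HF-SC Co, 458 to 912 across HF-SC GFP, 424 to 1282 across HF-SC Tom, 750 to 869 across b-KC Co, 151 to 428 across b-KC GFP and 227 to 521 across b-KC Tom.

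**Figure D1:**
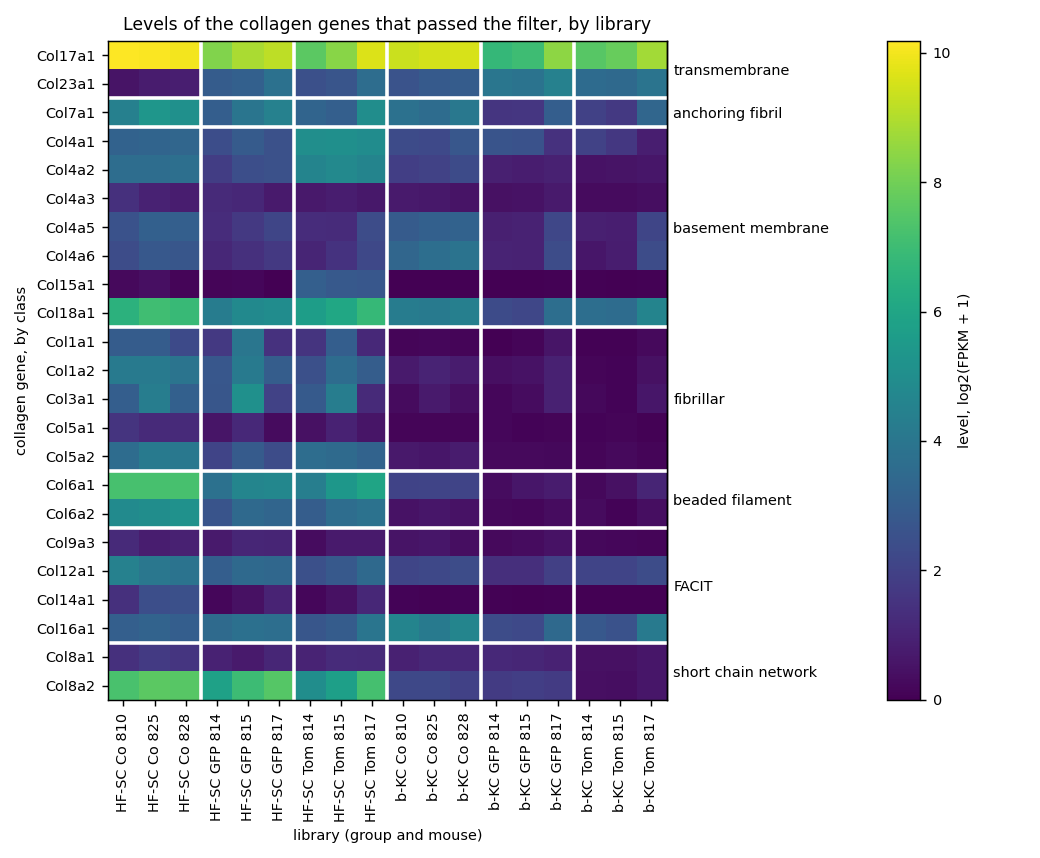
Heat map of the 23 tested collagen genes (rows, grouped by class) in the 18 libraries (columns, by group and mouse); colour is log2(FPKM + 1). Col17a1 is the brightest row throughout, Col6a1, Col6a2 and Col8a2 are bright in HF-SC libraries and dark in b-KC libraries, and Col15a1 exceeds 1 FPKM in the HF-SC Tom columns alone.

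The comparisons below were made with limma on log2(FPKM + 1) over the 12751 genes that passed the filter, and a gene was called changed at an adjusted p under 0.05. Differences are on that log2 scale, which understates the change of genes under about 1 FPKM, and SE is the standard error of a difference. The GFP and the Tom population of a cell type were both set against the same Co libraries and came from the same mice, so their comparisons are not independent. Where 3 values are given for a group, they stand in the order of mice 810, 825 and 828 for Co and 814, 815 and 817 for DKO*.

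The first comparison asks how the collagens of control bulge cells and control basal keratinocytes differ. Of the 23 genes, 16 were higher and 2 were lower in HF-SC Co, against 24.6% and 27.3% of all genes tested. Of the 16, 8 had reached 1 FPKM in HF-SC libraries only (Col1a1, Col3a1, Col4a3, Col5a1, Col5a2, Col6a2, Col9a3 and Col14a1) and so entered the test through the cell type where they are high. Nothing is read from the count over the 23, and the differences of these 8 between the cell types are given as a description with no p. Among the 14 genes that reached it in both cell types, 8 were higher and 2 lower. The 2 lower ones were Col23a1 and Col16a1. Rescaling the libraries by their upper quartile moved the median of all genes to 0.09 and the numbers higher and lower among them from 3140 and 3483 to 3938 and 2554. Each call among the 14 collagens that reached 1 FPKM in both cell types was made there too.

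Type VI collagen, which forms beaded filaments around cells, differed strongly between the cell types. Col6a1 was at 149, 149 and 148 FPKM across the 3 HF-SC Co libraries (mice 810, 825 and 828) and at 3.19, 3.23 and 3.29 across b-KC Co of the same mice (difference 5.14 ± 0.32 (SE), adjusted p = 5.74e-09). Col6a2 was at 28.6, 30.6 and 34.6 FPKM across HF-SC Co and at 0.427, 0.521 and 0.420 across b-KC Co (difference 4.47). In both genes all HF-SC Co libraries lay far above all b-KC Co libraries. The third chain gene, Col6a3, did not pass the filter.

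Col8a2, a short chain collagen that forms a hexagonal network, showed the same order. It was at 153, 195 and 187 FPKM across HF-SC Co and 3.60, 3.59 and 2.86 across b-KC Co (difference 5.36 ± 0.43 (SE), adjusted p = 6.83e-08). Its partner chain Col8a1 was far lower, with 1.65, 2.35 and 1.97 and 0.927, 1.19 and 1.21 FPKM, and differed by 0.50 ± 0.13 (SE), adjusted p = 0.00424. The groups did not overlap in either gene.

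The fibrillar chains were lower in level than Col6a1, Col6a2 and Col8a2. Col5a2, a chain of type V collagen that limits fibril width, was at 11.2, 16.99 and 15.7 FPKM across HF-SC Co and 0.625, 0.514 and 0.711 across b-KC Co (difference 3.26). Col1a1, the main chain of dermal type I collagen, was at 6.75, 6.76 and 3.90 and 0.0917, 0.132 and 0.115 FPKM (difference 2.58). Col1a2, Col3a1 and Col5a1 differed in the same direction, by 3.27, 3.003 and 1.16. Fibroblast markers moved with them: the summed FPKM of 8 markers was 30.1 to 63.6 across HF-SC Co and 3.24 to 4.82 across b-KC Co, with 4 and 1 of the 8 at 1 FPKM or more in all 3 libraries and Mfap5 at 0 in all 3 of b-KC Co. Dcn, the most abundant of them, was 17.1 to 45.8 and 2.93 to 4.20 FPKM. Of 6 markers of the dermal papilla and sheath 3 were tested, of which Crabp1 and Wif1 were higher in HF-SC Co and Rspo3 was lower. Their summed FPKM over the 6 was 52.9 to 78.5 across HF-SC Co and 7.01 to 8.57 across b-KC Co, with 4 of the 6 under 1 FPKM in all 3 libraries of each group and Sox2 at 0 in both. The part of either cell type in these differences was not tested, and in sorted bulk samples more cells of a type and more RNA per cell cannot be told apart.

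Col23a1, the other transmembrane collagen that was tested, went the other way. It was at 0.439, 0.728 and 0.797 FPKM across HF-SC Co and 5.09, 6.41 and 6.90 across b-KC Co (difference -2.11 ± 0.28 (SE), adjusted p = 1.42e-05). Col16a1, a FACIT collagen found near the junction of epidermis and dermis, was at 7.56, 8.38 and 7.19 and 23.2, 16.8 and 23.9 FPKM (difference -1.34 ± 0.40 (SE), adjusted p = 0.0101); its call was lost without mouse 810 or 828 (adjusted p up to 0.0796 over the alternatives).

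Among the junction collagens, Col17a1 differed by 0.64 (95% interval -0.38 to 1.65, adjusted p = 0.281) and Col7a1 by 1.14 (-0.02 to 2.30, adjusted p = 0.0917), neither past the threshold. With the mouse as a fixed block, since both populations came from the same mice, both passed it (adjusted p = 0.0188 and 0.00162), whereas with a random block Col7a1 passed (0.0167) and Col17a1 did not. Col4a6 differed by -1.02 (adjusted p = 0.0591, and 0.00116 with the block). Col4a1 and Col4a2, the ubiquitous type IV chains, were higher in HF-SC Co by 0.82 (adjusted p = 0.0292, lost without mouse 810, 815, 825 or 828 and with 0.1 added in place of 1, at up to 0.162) and 1.59 (adjusted p = 9.22e-07). Col18a1, whose C-terminal fragment is endostatin, was higher by 2.55 ± 0.37 (SE), adjusted p = 4.01e-05. Col4a3, a type IV chain best known from the kidney, and Col9a3, a FACIT chain best known from cartilage, were higher by 0.42 and 0.47 at low levels (at most 1.69 and 1.30 FPKM in any library). Endothelial markers moved with the vessel-associated chains among these: 14 of 15 were higher in HF-SC Co, against 24.6% of all genes, with a summed FPKM of 97.2 to 162 across HF-SC Co and 2.17 to 4.15 across b-KC Co. Their part in the differences of Col4a1, Col4a2 and Col18a1 was not tested.

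**Figure D2:**
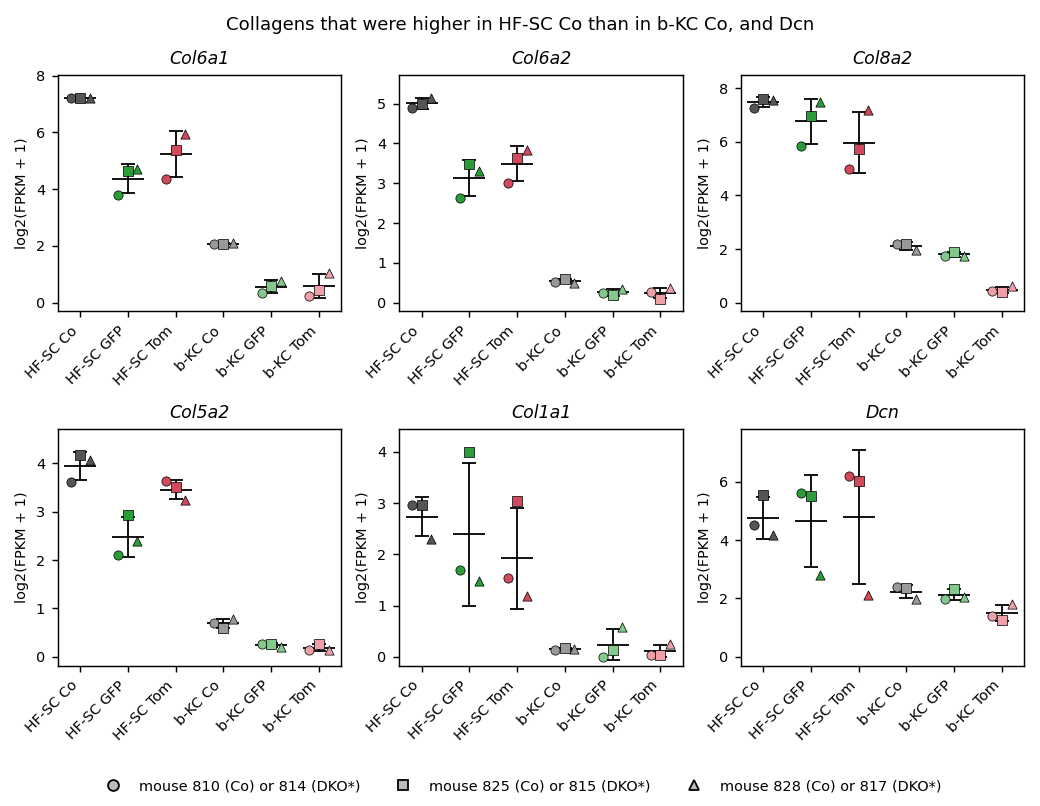
Levels of 5 collagens that were higher in HF-SC Co than in b-KC Co and of the fibroblast marker Dcn, as log2(FPKM + 1); each point is 1 library, its shape the mouse, and bars give the group mean and SD (n = 3). Col6a1, Col6a2 and Col5a2 lie below HF-SC Co in the GFP population, and Col1a1 and Dcn spread widely among the DKO* mice.

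The next comparisons ask how the collagens of DKO* skin differ from those of control skin. In HF-SC GFP 12 of the 23 genes were lower and 1 was higher than in HF-SC Co, against 20.0% lower and 18.5% higher of all genes tested (median -0.78 for the collagens, -0.05 for all genes). In HF-SC Tom 12 were lower and 4 higher (Col15a1 among these, which entered the test through this group alone), against 22.1% and 22.3% (median -0.68, -0.04 for all genes), and 10 were changed without mouse 814. Among the lower genes of both HF-SC populations, Col5a1 and Col14a1 entered the test only with the HF-SC Co libraries. Col9a3, lower in HF-SC Tom, entered it through HF-SC Co and GFP libraries. Nothing is read from these genes in the counts. In b-KC GFP 9 were lower and 1 higher, against 21.3% and 20.3% (median -0.28, -0.03 for all genes), and 6 were changed without mouse 815. In b-KC Tom 11 were lower and 1 higher, against 23.3% and 22.6% (median -0.50, -0.02 for all genes), and 7 were changed without mouse 810, 815 or 828. Of the collagens that fell, mouse 817 was the DKO* mouse nearest to the Co mean for 8 of 12 (HF-SC GFP), 8 of 12 (HF-SC Tom), 9 of 9 (b-KC GFP) and 9 of 11 genes (b-KC Tom). Without mouse 817, Col4a1, Col7a1 and Col8a2 were also called lower and Col16a1 higher in HF-SC GFP, Col4a6, Col7a1 and Col18a1 lower in HF-SC Tom, and Col18a1 lower in b-KC Tom. Of 7 leukocyte markers, 5 were tested, and Cd74 and H2-Aa, genes of antigen presentation, were higher in all 4 DKO* populations than in Co in spite of the CD45- gate. Itgam was also higher in HF-SC GFP, and Cd68 in both b-KC populations. The summed FPKM of the 7 was 9.54 to 13.7 across HF-SC Co and 6.16 to 9.91 across b-KC Co, and 147 to 185 across HF-SC GFP, 117 to 263 across HF-SC Tom, 291 to 505 across b-KC GFP and 220.1 to 1011 across b-KC Tom, with none at 0 in all 3 libraries of a group and 4 of the 7 under 1 FPKM in all 3 libraries of each b-KC group. Of 6 bulge markers, 4 (Lgr5, Lhx2, Nfatc1 and Sox9) were lower in b-KC Tom, against 23.3% of all genes. In b-KC GFP 1 of the 6 (Nfatc1) was lower, no larger a share than the 21.3% of all genes. Of the 3 dermal papilla and sheath markers tested, Rspo3 was lower in both b-KC populations and Wif1 in b-KC Tom. Of 5 melanocyte markers 3 (Dct, Mlana and Tyrp1) were higher in HF-SC GFP, against 18.5% of all genes. Of 3 mural markers tested, Acta2 was higher in all but b-KC Tom and Cspg4 lower in all but HF-SC GFP. Notch3 was higher in HF-SC GFP and lower in both b-KC populations. Of 5 basal keratinocyte markers, Trp63 was lower in HF-SC Tom and b-KC GFP, and Krt14, listed at 0 in some libraries, in b-KC Tom. The part of any of these in the collagen differences was not tested.

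Col17a1 (chr19:47720834-47766584, minus strand, mouse build NCBI37/mm9, which is used for all gene positions below) fell in all 4 DKO* populations. It was at 1162, 1119.7 and 1040.4 FPKM across HF-SC Co, at 300.2, 477 and 576 across HF-SC GFP (mice 814, 815 and 817), and at 197, 330.2 and 792 across HF-SC Tom. It was at 652, 732 and 754 FPKM across b-KC Co, at 109.8, 128 and 354 across b-KC GFP and at 185, 225 and 439 across b-KC Tom. Every DKO* library lay below every Co library of its cell type, and in each DKO* population mouse 817 was the one nearest to Co. The differences were -1.34 ± 0.48 (SE), adjusted p = 0.0361 in HF-SC GFP, -1.57 ± 0.48 (SE), adjusted p = 0.0150 in HF-SC Tom, -2.05 ± 0.48 (SE), adjusted p = 0.00362 in b-KC GFP and -1.43 ± 0.48 (SE), adjusted p = 0.0235 in b-KC Tom. These calls depended on single mice: those in HF-SC GFP, HF-SC Tom and b-KC Tom were each lost on leaving out any 1 of 4 or 5 mice (adjusted p up to 0.109, 0.0838 and 0.121; mice 810, 814, 815 and 825 in each, and also 828 for HF-SC GFP and b-KC Tom, and the filter for HF-SC GFP), and the b-KC GFP call without mouse 815 (0.0511).

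Col7a1, the anchoring fibril collagen, ranged from 20.8 to 40.0 FPKM across HF-SC Co, 7.30 to 21.3 across HF-SC GFP and 7.55 to 30.7 across HF-SC Tom. In basal cells it ranged from 11.2 to 16.0 across b-KC Co, 1.96 to 7.35 across b-KC GFP and 2.23 to 9.16 across b-KC Tom. DKO* and Co libraries overlapped in HF-SC and did not in b-KC. It fell in b-KC GFP (-1.75 ± 0.55 (SE), adjusted p = 0.0184) and b-KC Tom (-1.51 ± 0.55 (SE), adjusted p = 0.0336), though the former call was lost without mouse 814, 815 or 828 and the latter without any 1 of 810, 814, 815, 825 and 828 or without the filter on low values (adjusted p up to 0.101 and 0.167). In HF-SC GFP the difference was -1.15 (adjusted p = 0.109) and in HF-SC Tom -1.19 (adjusted p = 0.0898, or 0.0403 once mouse entered as a random block).

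Col4a5 and Col4a6 lie head to head on the X chromosome (Col4a6 at chrX:137599946-137908619 on the minus strand and Col4a5 at chrX:137909928-138123778 on the plus strand) and encode chains of the epidermal basement membrane. Col4a6 was at 9.34, 11.9 and 13.6 FPKM across b-KC Co, at 1.01, 0.983 and 4.16 across b-KC GFP and at 0.546, 0.778 and 4.16 across b-KC Tom. The DKO* libraries were all below the Co libraries, with mouse 817 again the nearest. Its differences were -2.19 ± 0.43 (SE), adjusted p = 0.00117 in b-KC GFP and -2.37 ± 0.43 (SE), adjusted p = 4.66e-04 in b-KC Tom. In bulge cells Col4a6 was at 4.14, 5.98 and 5.53 FPKM across HF-SC Co, 1.20, 1.64 and 2.202 across HF-SC GFP and 1.07, 1.83 and 3.67 across HF-SC Tom. There it fell in GFP (-1.22 ± 0.43 (SE), adjusted p = 0.0349), a call lost without any 1 of mice 810, 814, 815, 825 and 828, without the filter and with 0.1 added in place of 1 (adjusted p up to 0.114), and differed by -1.03 in Tom (adjusted p = 0.0632, and 0.0276 with the random block). Col4a5 fell in all 4 populations, with differences of -1.23 (GFP) and -1.28 (Tom) in HF-SC, and of -1.72 (GFP) and -1.78 (Tom) in b-KC (adjusted p = 0.0222, 0.0160, 0.00323 and 0.00197); both HF-SC calls were lost without mouse 814, 815, 825 or 828 (adjusted p up to 0.0987 and 0.0955).

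Col18a1 was at 93.3, 132 and 117 FPKM across HF-SC Co, 18.2, 27.9 and 29.8 across HF-SC GFP and 49.8, 66.5 and 111 across HF-SC Tom. It was at 18.2, 17.2 and 20.2 FPKM across b-KC Co, 4.01, 3.50 and 11.9 across b-KC GFP and 11.7, 11.2 and 23.4 across b-KC Tom. GFP libraries were below Co in both cell types, whereas the Tom libraries overlapped Co. It fell in HF-SC GFP (-2.14 ± 0.37 (SE), adjusted p = 3.46e-04) and in b-KC GFP (-1.56 ± 0.37 (SE), adjusted p = 0.00430, lost without mouse 815 at up to 0.0565). Of 15 endothelial markers 12 were also lower in HF-SC GFP and 0 higher, while in b-KC GFP 0 were lower and 1 (Egfl7) was higher; their part in the fall was not tested. In the Tom populations its differences were -0.65 (95% interval -1.44 to 0.14) and -0.32 (-1.12 to 0.47), neither past the threshold.

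Col23a1 (chr11:51103422-51397420, plus strand) was the 1 collagen that rose in all 4 populations. In bulge cells it was at 0.439, 0.728 and 0.797 FPKM across HF-SC Co, 6.76, 7.67 and 13.0 across HF-SC GFP and 4.60, 5.35 and 11.5 across HF-SC Tom. In basal cells it was at 5.09, 6.41 and 6.90 FPKM across b-KC Co, 14.8, 13.9 and 21.1 across b-KC GFP and 10.9, 10.0 and 14.3 across b-KC Tom. All DKO* libraries were above all Co libraries of their cell type, and here mouse 817 was the farthest from Co. The mean FPKM rose 14.0-fold in HF-SC GFP (2.57 ± 0.28 (SE), adjusted p = 4.17e-06), 10.9-fold in HF-SC Tom (2.21 ± 0.28 (SE), adjusted p = 1.46e-05), 2.70-fold in b-KC GFP (1.29 ± 0.28 (SE), adjusted p = 0.00226) and 1.91-fold in b-KC Tom (0.83 ± 0.28 (SE), adjusted p = 0.0242). The last of these was lost without mouse 810, 815 or 825 (adjusted p up to 0.0928). With it, transmembrane collagens moved in opposite directions, since Col17a1 fell in the same populations.

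**Figure D3:**
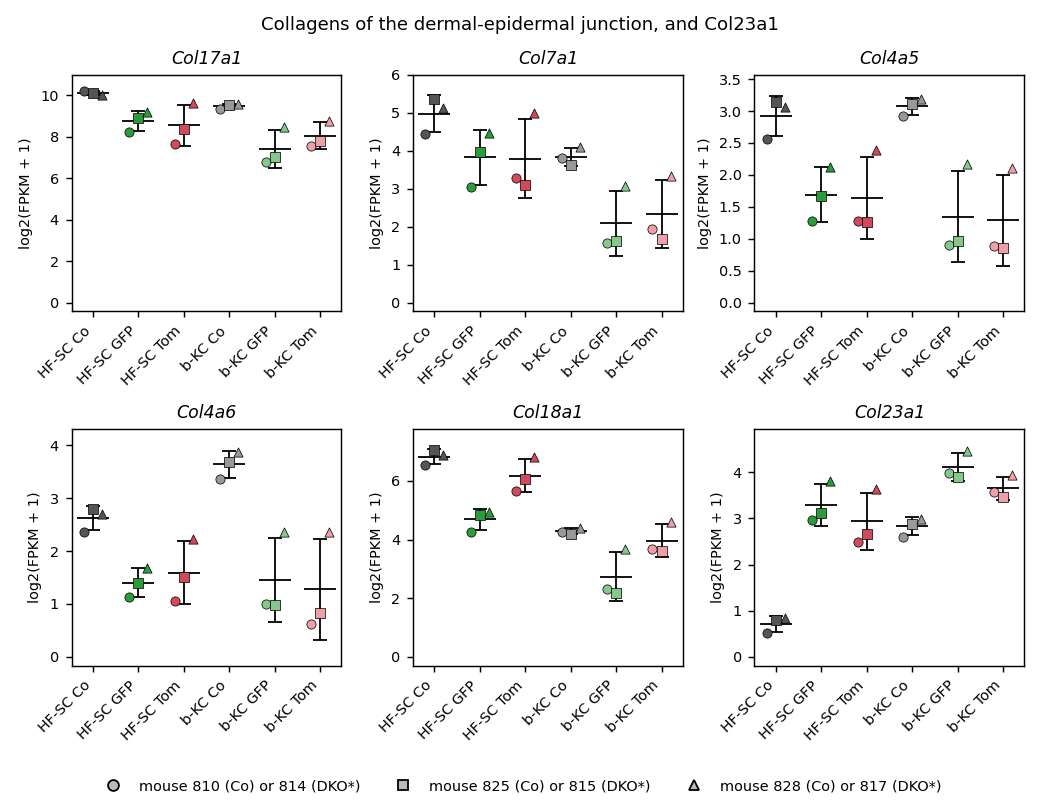
Levels of 5 collagens of the dermal-epidermal junction and of Col23a1 in the 6 groups, as log2(FPKM + 1); each point is 1 library, its shape the mouse, and bars give the group mean and SD (n = 3). The junction collagens sit lower in most DKO* libraries than in Co of the same cell type, and Col23a1 sits higher in all of them.

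Both type VI genes tested, Col6a1 and Col6a2, fell in bulge cells. Of 6 bulge markers 3 were also lower in HF-SC GFP (Cd34, Lgr5 and Lhx2, against 20.0% of all genes) and 5 in HF-SC Tom (these, Nfatc1 and Sox9, against 22.1%), with 0 higher in either. Of the dermal papilla and sheath markers Crabp1 and Wif1 were lower in both, Rspo3 passed in neither, and the sum over the 6 was 32.9 to 37.8 FPKM across HF-SC GFP and 21.8 to 27.9 across HF-SC Tom, against 52.9 to 78.5 across HF-SC Co. The part of either in the collagen values of the bulge population was not tested. Col6a1 (chr10:76171537-76188913, minus strand) was at 12.8, 23.7 and 25.1 FPKM across HF-SC GFP and 19.6, 41.0 and 61.3 across HF-SC Tom, against 148 to 149 in HF-SC Co, and differed by -2.85 ± 0.32 (SE), adjusted p = 6.95e-06 and -1.99 ± 0.32 (SE), adjusted p = 1.55e-04. Col6a2 was at 5.20, 10.1 and 8.88 FPKM across HF-SC GFP and 7.04, 11.5 and 13.3 across HF-SC Tom, and differed by -1.87 ± 0.21 (SE), adjusted p = 6.92e-06 and -1.51 ± 0.21 (SE), adjusted p = 4.04e-05. No DKO* library of either gene reached the lowest HF-SC Co library, and the adjusted p of both genes stayed under 0.05 in both populations under every alternative tried. In basal cells, where Col6a1 started from 3.19 to 3.29 FPKM, it fell to 0.267, 0.515 and 0.710 across b-KC GFP and 0.178, 0.357 and 1.07 across b-KC Tom (-1.51 ± 0.32 (SE), adjusted p = 0.00210, and -1.51 ± 0.32 (SE), adjusted p = 0.00160). Col6a3, which was not tested, was at 0.950, 1.97 and 0.835 FPKM across HF-SC Tom, all above HF-SC Co, with 0.761, 0.572 and 0.107 across HF-SC Co and 0.453, 1.88 and 0.0989 across HF-SC GFP. Col6a4, under 0.2 FPKM in every HF-SC library, was called higher in HF-SC GFP when no filter was applied. The ratio of Col6a1 to Col6a2 FPKM, which was 4.27 to 5.20 across HF-SC Co, was 2.34 to 2.83 across HF-SC GFP and 2.78 to 4.61 across HF-SC Tom.

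Because the DKO* mice lack JunB and c-Jun in GFP cells, and these proteins bind the AP-1 motif TGANTCA, promoters were searched for its letters. The motif reads the same on both strands. Of 38 windows of 300 bases (250 before and 50 after an annotated start, RefSeq, GRCm38.p6) for 35 of the 44 collagens, 1 held it, against 7.81% of 32851 windows of all genes. No window was used for Col1a1, Col2a1, Col4a3, Col5a2, Col9a3, Col12a1, Col14a1, Col22a1 and Col26a1. The match lay in the Col6a1 promoter, with its first base at position -90 from the start, and is shown in capitals within 97 bases of the minus strand (chr10:76726083-76726179, GRCm38.p6):
Col6a1: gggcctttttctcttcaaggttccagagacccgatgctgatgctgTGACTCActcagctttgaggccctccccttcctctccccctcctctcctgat
A match is a description of letters and not of a bound site, and its part in the fall of Col6a1 was not tested.

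Other collagens that were high in bulge cells also fell there. Col5a2 was at 3.30, 6.64 and 4.23 FPKM across HF-SC GFP and 11.3, 10.3 and 8.44 across HF-SC Tom. It fell in GFP (-1.47 ± 0.19 (SE), adjusted p = 2.06e-05) with no overlap, and in Tom (-0.49 ± 0.19 (SE), adjusted p = 0.0439) with overlap with Co, a call lost without mouse 815, 817, 825 or 828, with the random block, with 0.1 added in place of 1, without the filter and with only the groups compared fitted (adjusted p up to 0.188). In b-KC, under 1 FPKM in every library, its difference in Tom was -0.50 ± 0.19 (SE), adjusted p = 0.0385, lost without any 1 mouse or without the filter. Col14a1, a FACIT collagen of fibril surfaces, was at 1.64, 4.46 and 4.59 FPKM across HF-SC Co, 0.132, 0.367 and 1.00 across HF-SC GFP and 0.122, 0.378 and 1.18 across HF-SC Tom. Its differences from Co were -1.57 in GFP and -1.53 in Tom. It passed the filter only with the HF-SC Co libraries, where it is high, so these are given as a description with no p. Col12a1, of the same class, fell in HF-SC GFP (-0.84, adjusted p = 0.00931, lost without mouse 810 at up to 0.0619) and in HF-SC Tom (-1.20, adjusted p = 6.40e-04). In b-KC GFP its difference was -0.69 (adjusted p = 0.0262, lost without mouse 814, 815, 825 or 828 at up to 0.159). Col9a3 differed from Co by -0.38 in HF-SC Tom. It reached 1 FPKM in 3 libraries, of HF-SC Co and GFP and none of Tom, so this is given as a description with no p. The call was lost without mouse 810, 814, 815 or 828, with 0.1 added in place of 1 and with only the groups compared fitted.

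Col8a2 was at 56.4, 125 and 179 FPKM across HF-SC GFP and 30.5, 52.2 and 145 across HF-SC Tom, a range in which mouse 814 was the lowest and mouse 817 close to Co. It fell in HF-SC Tom (-1.51 ± 0.43 (SE), adjusted p = 0.00985, lost without mouse 815 or with only the groups compared fitted, with adjusted p up to 0.0742), and its difference in HF-SC GFP was -0.71 (95% interval -1.62 to 0.20). In basal cells it was at 2.38, 2.71 and 2.38 FPKM across b-KC GFP and 0.349, 0.304 and 0.537 across b-KC Tom, and fell in Tom (-1.64 ± 0.43 (SE), adjusted p = 0.00580). Col8a1 was at 0.973, 0.655 and 1.14 FPKM across HF-SC GFP and 1.04, 1.35 and 1.30 across HF-SC Tom, and fell in both (adjusted p = 0.00111 and 0.0154, the latter lost without mouse 814, 825 or 828 or with only the groups compared fitted, at up to 0.103). It fell in b-KC Tom as well (-0.56 ± 0.13 (SE), adjusted p = 0.00238).

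Col16a1 changed in basal cells. It was at 4.20, 3.81 and 10.2 FPKM across b-KC GFP and 5.94, 4.93 and 17.1 across b-KC Tom, against 23.2, 16.8 and 23.9 across b-KC Co. It fell in b-KC GFP (-1.75 ± 0.40 (SE), adjusted p = 0.00299) and b-KC Tom (-1.28 ± 0.40 (SE), adjusted p = 0.0154), where mouse 817 overlapped Co and the call was lost without mouse 810, 814, 815 or 828 (adjusted p up to 0.117). In bulge cells it was at 10.6, 12.6 and 11.8 FPKM across HF-SC GFP and 5.61, 6.77 and 14.6 across HF-SC Tom, with differences of 0.54 and 0.09 that did not pass the threshold.

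Among the dermal fibrillar collagens, Col1a1 was at 2.24, 15.0 and 1.77 FPKM across HF-SC GFP and 1.92, 7.20 and 1.27 across HF-SC Tom, with mouse 815 the highest in each. Its differences from Co were -0.35 (95% interval -1.47 to 0.78) and -0.81 (-1.94 to 0.31), and those of Col3a1 -0.21 (-1.72 to 1.31) and -0.68 (-2.20 to 0.83), and all 4 intervals include 0. These values rest on mouse 815: without it Col1a1 was called lower in GFP (-1.15, adjusted p = 0.00479) and Tom (-1.37, adjusted p = 0.00132), Col1a2 in GFP (-1.21, adjusted p = 0.00198) and Col3a1 in Tom (-1.44, adjusted p = 0.0443). Col1a2 fell in HF-SC Tom (-1.07 ± 0.31 (SE), adjusted p = 0.0104), a call lost without mouse 814 (adjusted p up to 0.0572). Col5a1 differed from Co by -0.63 in HF-SC GFP and -0.64 in HF-SC Tom. It passed the filter only with the HF-SC Co libraries, where it is high, so these are given as a description with no p. Both calls were lost without mouse 810 or 814, and the first also without 817 or with only the groups compared fitted. Of 6 fibroblast markers tested, Clec3b and Mfap5 were lower in HF-SC GFP, and Clec3b was lower and Fbn1 higher in HF-SC Tom. The summed FPKM of all 8 was 9.09 to 59.98 across HF-SC GFP and 14.1 to 99.3 across HF-SC Tom, and Dcn was lowest in mouse 817 (48.3, 44.2 and 6.05 FPKM in GFP and 71.6, 64.5 and 3.40 in Tom). Their part in the fibrillar values was not tested.

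**Figure D4:**
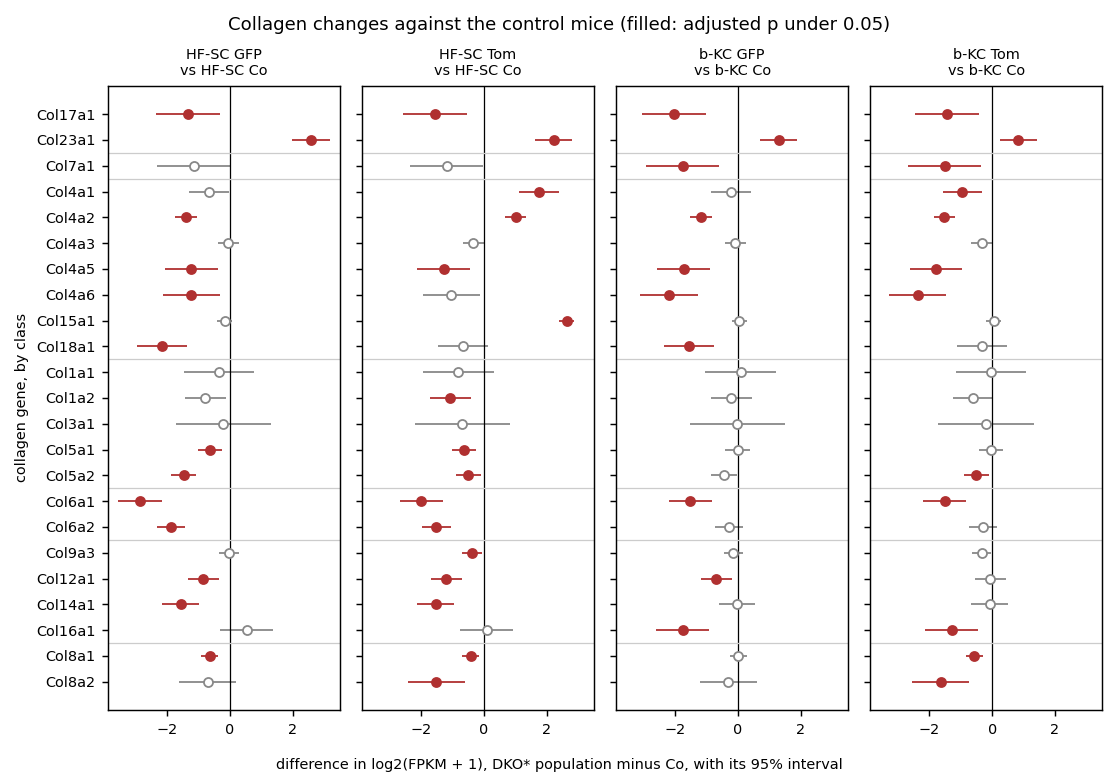
Differences in log2(FPKM + 1) between each DKO* population and Co for the 23 tested collagens, with 95% intervals; filled points had an adjusted p under 0.05. Most filled points lie left of 0, Col23a1 lies right of 0 in all 4 panels, and Col4a1, Col4a2 and Col15a1 lie right of 0 in HF-SC Tom.

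Col4a1, Col4a2 and Col15a1 set HF-SC Tom apart. Col4a1 was at 8.10, 8.70 and 9.16 FPKM across HF-SC Co, 4.24, 6.55 and 4.74 across HF-SC GFP and 32.2, 32.6 and 29.8 across HF-SC Tom. Col4a2 was at 11.3, 11.5 and 12.2 FPKM across HF-SC Co, 2.59, 4.43 and 4.82 across HF-SC GFP and 23.1, 26.9 and 23.3 across HF-SC Tom. Col15a1 (chr4:47221033-47326039, plus strand), a multiplexin of vessel and muscle basement membranes, was at 0.202, 0.322 and 0.1003 FPKM across HF-SC Co, 0.0926, 0.143 and 0 across HF-SC GFP and 7.55, 6.18 and 5.80 across HF-SC Tom. In all 3 genes every HF-SC Tom library was above every other library of the series.

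Against Co the first 2 rose in HF-SC Tom, by 1.75 ± 0.30 (SE), adjusted p = 2.09e-04 (Col4a1) and 1.00 ± 0.16 (SE), adjusted p = 1.36e-04 (Col4a2). Col15a1 passed the filter through the HF-SC Tom libraries alone, so that its differences from that group (2.63 against Co) are given here and below as a description with no p. In HF-SC GFP, Col4a2 fell (-1.39 ± 0.16 (SE), adjusted p = 8.49e-06), while Col4a1 differed by -0.66 (95% interval -1.29 to -0.03) and Col15a1 by -0.16 (-0.40 to 0.07). In basal cells Col4a1 was at 4.02, 3.70 and 5.86 FPKM across b-KC Co, 5.23, 4.96 and 1.77 across b-KC GFP and 2.995, 2.11 and 0.832 across b-KC Tom. Col4a2 was at 2.749, 2.99 and 3.97 FPKM across b-KC Co, 0.865, 0.784 and 0.915 across b-KC GFP and 0.404, 0.465 and 0.542 across b-KC Tom. Col4a2 fell in both (GFP -1.18 ± 0.16 (SE), adjusted p = 7.66e-05; Tom -1.52 ± 0.16 (SE), adjusted p = 5.35e-06), and Col4a1 fell in Tom (-0.94 ± 0.30 (SE), adjusted p = 0.0167, lost without mouse 828 at up to 0.0948). Col15a1 stayed at or below 0.0532 FPKM in all b-KC libraries.

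Endothelial markers were also highest in HF-SC Tom, as these 3 genes were. The summed FPKM of 15 endothelial markers was 97.2 to 162 across HF-SC Co, 2.54 to 49.2 across HF-SC GFP and 949.8 to 2774 across HF-SC Tom, and 1.97 to 12.7 in the 9 b-KC libraries. In HF-SC Tom 14 of the 15 were at 1 FPKM or more in all 3 libraries, against 11 for HF-SC Co and 0 for HF-SC GFP, and none was at 0 in all 3 libraries of any group. Pecam1, the defining marker, was at 10.6, 12.9 and 8.62 FPKM across HF-SC Co, 3.57, 4.52 and 0.547 across HF-SC GFP and 209, 234 and 66.3 across HF-SC Tom. Within HF-SC Tom mouse 817 was the lowest for Pecam1. It was also the lowest for Col4a1 and Col15a1 (29.8 and 5.80 FPKM), by smaller margins, but not for Col4a2 (23.3 FPKM). The gates described for these populations name CD45, CD49f and CD34. An antibody to CD31, the protein of Pecam1, is among those that the study's methods list as used by experiment. Whether it was used in these sorts is not stated. The part of endothelial cells in these differences was not tested.

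Col4a1 and Col4a2 share a divergent promoter and overlap at their starts. The annotated first bases are chr8:11312826 for Col4a1 on the minus strand and chr8:11312805 for Col4a2 on the plus strand (GRCm38.p6), so 22 bases belong to both transcripts. They are given in capitals within 30 bases of the plus strand (chr8:11312801-11312830):
Col4a1 and Col4a2: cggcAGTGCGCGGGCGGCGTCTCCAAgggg
The libraries did not record strand, so reads that fell in these 22 bases cannot be assigned to either gene. The ratio of Col4a1 to Col4a2 FPKM was 0.716 to 0.755 across HF-SC Co, 0.983 to 1.63 across HF-SC GFP, 1.21 to 1.39 across HF-SC Tom and 1.24 to 1.47 across b-KC Co. In b-KC GFP it was 6.04 and 6.33 in mice 814 and 815 and 1.94 in mouse 817, and in b-KC Tom 7.42, 4.53 and 1.53. The ratio in all 6 of these libraries was above that of every control library, on Col4a2 levels under 1 FPKM.

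**Figure D5:**
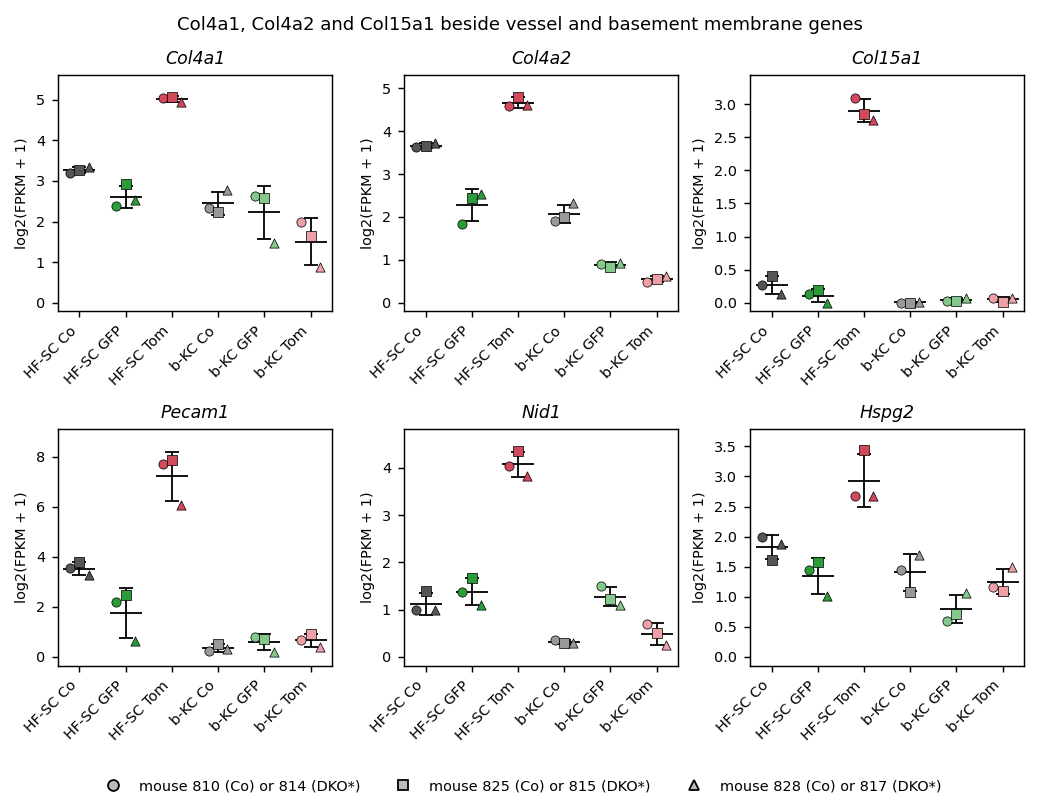
Levels of Col4a1, Col4a2 and Col15a1 beside the endothelial marker Pecam1 and the basement membrane genes Nid1 and Hspg2, as log2(FPKM + 1); each point is 1 library, its shape the mouse, and bars give the group mean and SD (n = 3). All 6 genes are highest in HF-SC Tom.

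Mutant and non-mutant cells of the same mice were also compared. In HF-SC GFP 5 of the 23 genes were lower (4 apart from Col15a1, which entered the test through HF-SC Tom alone) and 0 higher than in HF-SC Tom, against 5.80% and 2.83% of all genes tested (median 0.04 for the collagens, 0.02 for all genes). With the same limma test, 7 of the 23 had an unadjusted p under 0.05. The 5 were Col15a1 (-2.80), Col4a1 (-2.41 ± 0.30 (SE), adjusted p = 3.46e-05), Col4a2 (-2.39 ± 0.16 (SE), adjusted p = 6.72e-08), Col18a1 (-1.49 ± 0.37 (SE), adjusted p = 0.0181) and Col5a2 (-0.98 ± 0.19 (SE), adjusted p = 0.00250). The last 2 calls were lost without mouse 814 or with only the groups compared fitted, and that of Col18a1 also without mouse 815 (adjusted p up to 0.129 for Col5a2 and 0.118 for Col18a1). Of the 5, 4 are basement membrane collagens, as are 7 of the 23 tested, and Col15a1 among the 4 entered the test through HF-SC Tom alone. Nothing is read from that count. Col6a1 differed by -0.86 (adjusted p = 0.129), and passed the threshold with the mouse as a block (0.00698).

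In b-KC GFP 1 gene was higher and 0 lower than in b-KC Tom, against 1.19% and 0.518% of all genes (median 0.06, -0.01 for all genes), and 5 of the 23 had an unadjusted p under 0.05. This was Col8a1, at 1.26, 1.13 and 0.985 FPKM in GFP and 0.379, 0.387 and 0.514 in Tom (0.57 ± 0.13 (SE), adjusted p = 0.0327), a call lost with only the groups compared fitted (adjusted p = 0.110). With the mouse as a block 3 were called, with Col8a2 higher (adjusted p = 0.0438) and Col18a1 lower (0.00501) in GFP as well. Without mouse 814, 815, 825 or 828 no collagen was called, and without mouse 817 there were 5. Col17a1 did not pass the threshold between GFP and Tom in either cell type, with differences of 0.22 (95% interval -0.79 to 1.24) in HF-SC and -0.62 (-1.64 to 0.40) in b-KC.

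Whether bulge and basal cells changed by different amounts was tested as the difference between their changes. For GFP, the change in HF-SC was higher for 2 and lower for 4 of the 23 collagens, against 7.31% and 5.22% of all genes (median -0.21, -0.02 for all genes). Col16a1 (2.29 ± 0.56 (SE), adjusted p = 0.0137) and Col23a1 (1.29 ± 0.39 (SE), adjusted p = 0.0433) were higher, and Col6a2, Col14a1, Col5a2 and Col8a1 were lower, with differences of -1.59, -1.53, -1.03 and -0.65. This count was 1 to 3 without any 1 of mice 810, 814, 815, 825 and 828 (3, 2, 3, 2 and 1) and 11 without mouse 817. For Tom, the change in HF-SC was higher for 4 and lower for 3, against 10.3% and 5.58% (median -0.01, -0.02 for all genes), and 4 were called without mouse 825 or 828. Col4a1 (2.70 ± 0.42 (SE), adjusted p = 4.60e-04), Col15a1 (2.59), Col4a2 (2.52 ± 0.23 (SE), adjusted p = 6.78e-06) and Col23a1 (1.38 ± 0.39 (SE), adjusted p = 0.0253) were higher, and Col14a1, Col6a2 and Col12a1 were lower, with differences of -1.46, -1.22 and -1.15.

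The lower ones include Col5a2, Col6a2 and Col14a1, which entered the test through HF-SC libraries alone and are under 1 FPKM in b-KC, where their change is compressed by the added 1. Among the 14 genes that reached 1 FPKM in both cell types the counts were 2 higher and 1 lower for GFP and 3 higher and 1 lower for Tom. With 0.1 added in its place, the GFP differences of Col6a2 (-1.08, adjusted p = 0.137), Col14a1 (-2.50, adjusted p = 0.0717) and Col5a2 (-0.33, adjusted p = 0.580) and the Tom differences of Col14a1 (-2.15, adjusted p = 0.111) and Col6a2 (-0.57, adjusted p = 0.458) no longer passed the threshold. The other calls held with it. Of the GFP calls, Col6a2 alone was kept with each mouse left out in turn, but it was lost with 0.1 added. Its value is given as a description, since it entered the test through HF-SC libraries alone. That of Col16a1 was lost without mouse 810, 814, 815 or 828, those of Col23a1 and Col8a1 without any 1 of 810, 814, 815, 825 and 828, that of Col14a1 without 814, 815, 825 or 828 and that of Col5a2 without 814, 825 or 828. The GFP call of Col23a1 was also lost without the filter (adjusted p = 0.0708). Of the Tom calls, Col4a1 and Col4a2 were kept with each mouse left out, while Col23a1 was lost without 810, 815, 825 or 828, Col12a1 without 810, 814, 815 or 825, Col14a1 without 814, 815, 825 or 828 and Col6a2 without 828. With the mouse as a fixed block Col6a1 was also called for GFP (adjusted p = 0.00355), and Col16a1 (0.0149) for Tom, and Col4a6 for both (0.0348 and 0.00626). For Col17a1 the difference between cell types was 0.71 for GFP (95% interval -0.73 to 2.14) and -0.14 for Tom (-1.58 to 1.30), and it did not pass.

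Collagen chains are hydroxylated, glycosylated, folded and trimmed by a set of enzymes and chaperones before they assemble. Of 30 such genes listed 22 were tested, and 9 were lower and 2 higher in HF-SC GFP, 5 and 6 in HF-SC Tom, 8 and 3 in b-KC GFP, and 7 and 3 in b-KC Tom, against Co (medians -0.33, 0.18, -0.25 and -0.12). Of all genes tested, 20.0%, 22.1%, 21.3% and 23.3% were lower and 18.5%, 22.3%, 20.3% and 22.6% higher in the same order, so the shares in HF-SC Tom were near those of all genes. Serpinh1 (Hsp47), the chaperone that binds procollagen, fell in all 4, from 63.1, 107 and 106 FPKM across HF-SC Co to 30.2, 35.8 and 35.2 across HF-SC GFP (-1.38 ± 0.20 (SE), adjusted p = 5.62e-05). Both b-KC calls of Serpinh1 (-0.65 and -0.57) were lost without mouse 814, 815, 825 or 828 (adjusted p up to 0.113 and 0.148). Leprel1, a prolyl 3-hydroxylase, also fell in all 4, with differences of -1.18, -1.24, -1.34 and -1.20 in the order given. P4hb, the beta subunit of prolyl 4-hydroxylase and a general disulfide isomerase, rose in all 4, by 0.87, 0.83, 0.93 and 0.87.

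Of the 3 lysyl hydroxylase genes, Plod1 and Plod2 differed between GFP and Tom cells, in opposite directions. Plod3 differed by -0.26 (95% interval -0.72 to 0.19) in HF-SC and -0.06 (-0.52 to 0.40) in b-KC, neither past the threshold. Plod1 was at 5.74, 6.70 and 8.83 FPKM across HF-SC GFP and 17.4, 19.1 and 17.8 across HF-SC Tom (-1.26 ± 0.20 (SE), adjusted p = 4.55e-04), and at 2.36, 2.33 and 3.89 across b-KC GFP and 4.82, 5.47 and 8.42 across b-KC Tom (-0.90 ± 0.20 (SE), adjusted p = 0.0321). Plod2 went the other way, with 2.80, 2.31 and 3.62 FPKM across HF-SC GFP and 1.40, 1.08 and 0.478 across HF-SC Tom (0.99 ± 0.21 (SE), adjusted p = 0.00592), and 1.78, 0.953 and 2.69 across b-KC GFP and 0.349, 0.250 and 0.0969 across b-KC Tom (1.15 ± 0.21 (SE), adjusted p = 0.0112). For neither gene did GFP and Tom libraries of a cell type overlap. The b-KC calls were lost without mouse 814 or 815, and that of Plod1 also without 825 or 828 or the filter, and both with only the groups compared fitted (adjusted p up to 0.404 for Plod1 and 0.150 for Plod2). The HF-SC call of Plod2 was lost when the groups compared were fitted alone (adjusted p = 0.0794). Tll1, a procollagen C-proteinase, was lower in GFP than in Tom cells of the bulge (-1.79, adjusted p = 1.76e-05).

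Of 6 collagen receptors tested, 1 (Ddr2) was higher in HF-SC GFP, 1 lower in HF-SC Tom, 3 lower in b-KC GFP and 2 lower in b-KC Tom. With 6 genes, 1 is no larger a share than that of all genes called in the same direction (18.5% and 22.1%, and 21.3% and 23.3% for the b-KC counts). Ddr1, a receptor tyrosine kinase of epithelia, fell in HF-SC Tom and in both b-KC populations, with differences of -1.12, -0.96 and -0.99. Each of these calls was lost without mouse 815, and also without 814 or with only the groups compared fitted in the first, without any 1 of 810, 814, 825 and 828 in the second, and without 810 or 828 in the third (adjusted p up to 0.0756, 0.156 and 0.0939). The calls of Ddr2 (0.90) and Itga2 (-1.16 in b-KC GFP) were lost without mouse 815, 825 or 828, and without the filter, that of Ddr2 also without 817, and that of Itga2 also without 810 or 814 and after upper quartile rescaling (adjusted p up to 0.2004 and 0.190). Mrc2, which takes up collagen, was at 7.43, 6.10 and 6.58 FPKM across b-KC Co, 0.671, 0.654 and 2.41 across b-KC GFP and 1.38, 1.07 and 3.31 across b-KC Tom, and fell in both (-1.86, adjusted p = 5.46e-04, and -1.47, adjusted p = 0.00208).

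Of 14 partners of these collagens in the hemidesmosome and basement membrane, 1 fell in HF-SC GFP, 2 fell and 3 rose in HF-SC Tom, 7 fell and 1 rose in b-KC GFP, and 4 fell in b-KC Tom. Set beside all genes tested (20.0%, 22.1%, 21.3% and 23.3% lower in the same order), the 7 in b-KC GFP were the larger share, and the other counts were near or below it. The 3 of 14 that rose in HF-SC Tom were near the 22.3% of all genes. Dst, which encodes the hemidesmosome plaque protein BPAG1, fell in all 4 (-1.09, -1.46, -1.86 and -1.98), as Col17a1 did, and its HF-SC GFP call was lost without mouse 810, 814, 815 or 828 (adjusted p up to 0.0677). The integrin genes of the hemidesmosome, Itga6 and Itgb4, passed the test in none of these 4 comparisons. The 3 that rose in HF-SC Tom were Nid1 (2.95 ± 0.18 (SE), adjusted p = 1.78e-08), Nid2 (1.46 ± 0.19 (SE), adjusted p = 2.03e-05) and Hspg2 (1.10 ± 0.23 (SE), adjusted p = 0.00115), the nidogens and perlecan that bind type IV collagen. Nid1 was at 0.984, 1.61 and 0.977 FPKM across HF-SC Co, 1.59, 2.18 and 1.13 across HF-SC GFP and 15.5, 19.4 and 13.1 across HF-SC Tom, again highest in HF-SC Tom, as Col4a1 and the endothelial markers were. Nid1 was also the 1 partner that rose in b-KC GFP, at 1.82, 1.35 and 1.14 FPKM against 0.285, 0.219 and 0.227 across b-KC Co. There it was called higher than in b-KC Tom too.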

How the data were processed

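RNA of sorted ear-skin cells was amplified and sequenced by the authors (SMART-Seq v4 and Nextera XT libraries, which keep no strand, single-end reads). Per the labels and the study's methods, TopHat2 2.0.10 with Bowtie 1.0.0 placed the reads on build NCBI37/mm9, and the deposited FPKM values, 1 per gene and library, came from Cufflinks 2.2.1. No read counts were used here, so no count model was fitted. The labels list later mouse builds as well, without a role.

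From these values log2(FPKM + 1) was computed with R 4.3.3, and 12751 of 23951 genes (those that reached 1 FPKM in 3 or more of the 18 libraries) were tested with limma 3.58.1 (1 mean per group, all 18 libraries, eBayes with trend, two-sided, Benjamini-Hochberg over all genes tested, threshold 0.05). The fit was tested on simulated data. Groups and mouse numbers came from the labels. The mouse numbers pair libraries of the same animal, and deviations from group means of same-mouse libraries correlated across genes at r = 0.0838 to 0.700, so mouse was used as a block in alternatives (a random block at a consensus correlation of 0.274, and a fixed block for comparisons within mice). Other alternatives were a pseudocount of 0.1, other filters and thresholds, no trend, the compared groups alone, upper-quartile rescaling and leaving out each mouse.

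The collagens and all other gene lists were chosen with earlier results of these data known. Values in each library are given for Col17a1, Col4a1 and Col1a1, for the 3 collagens with the highest mean in each group, and for the 3 with the smallest p among those changed in each comparison. Values of partner genes were chosen after their values were seen. Gene coordinates came from GENCODE vM1 (43 of the 44 collagens matched), and promoter windows from RefSeq (GRCm38.p6, 35 of 44 matched). Read depth is known only as implied by the spacing of low FPKM, so intervals were computed between libraries and not from counts.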

Additional observations from a re-analysis of the deposited data

Results flagged for a closer look

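The changes from Co differed between bulge cells and basal cells, by limma's test of that difference, for 13 collagen values. Of these, 6 are of genes that entered the test through HF-SC libraries alone (Col5a2, Col6a2 and Col14a1 for GFP, and Col6a2, Col14a1 and Col15a1 for Tom), and these 6 are given as descriptions. For the GFP populations, the change in HF-SC minus the change in b-KC was 2.29 for Col16a1, 1.29 for Col23a1, -0.65 for Col8a1, -1.03 for Col5a2, -1.53 for Col14a1 and -1.59 for Col6a2, all on the log2(FPKM + 1) scale. For the Tom populations it was 2.70 for Col4a1, 2.59 for Col15a1, 2.52 for Col4a2, 1.38 for Col23a1, -1.15 for Col12a1, -1.22 for Col6a2 and -1.46 for Col14a1. For Col23a1 and Col16a1 the size of the change is read beside unlike starting levels, since Col23a1 began under 1 FPKM in HF-SC Co and at 5.09 to 6.90 FPKM in b-KC Co, and Col16a1 began at 7.19 to 8.38 FPKM in HF-SC Co and 16.8 to 23.9 FPKM in b-KC Co. With 0.1 added in place of 1, 5 of these values no longer passed the threshold: Col6a2, Col14a1 and Col5a2 for GFP (-1.08, -2.50 and -0.33) and Col14a1 and Col6a2 for Tom (-2.15 and -0.57). The number for GFP was 1 to 3 without any 1 of mice 810, 814, 815, 825 and 828 and 11 without mouse 817, and for Tom it was 4 without mouse 825 or 828. Among the GFP values, that of Col16a1 no longer passed without mouse 810, 814, 815 or 828, and that of Col23a1 without any 1 of 810, 814, 815, 825 and 828. Col6a2 alone passed with each mouse left out, but it is among the 6 given as descriptions and did not pass with 0.1 added. Among the Tom values Col4a1 and Col4a2 passed with each mouse left out, and Col15a1 had entered the test through the HF-SC Tom libraries alone.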

How the results depend on the processing

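Of 88 collagen changes called over the 9 comparisons, 48 were called under every alternative at the same threshold. Of their 1181 values under these alternatives 1029 kept the direction and the call, 152 kept the direction and lost the call, and 0 changed direction. Most losses came with 1 mouse left out (21 without mouse 810, 27 without 814, 28 without 815, 22 without 825 and 27 without 828, but 3 without 817). The cause was not tested. With 1 mouse left out the number of collagens called ranged from 9 to 16 (HF-SC GFP), 10 to 18 (HF-SC Tom), 6 to 10 for b-KC GFP and 7 to 12 for b-KC Tom, each against Co, from 4 to 7 in HF-SC GFP and 0 to 5 in b-KC GFP against Tom, from 14 to 22 between HF-SC Co and b-KC Co, and from 1 to 11 (GFP) and 4 to 9 (Tom) for the difference between cell types. At an adjusted p under 0.01 there were 10 in HF-SC Tom and 6 in b-KC Tom against Co, 0 in b-KC GFP against Tom, and 1 (GFP) and 3 (Tom) for the difference between cell types. With a log2 difference of at least 2 as well, the counts against Co were 3 for HF-SC GFP, 2 for HF-SC Tom, 2 for b-KC GFP and 1 for b-KC Tom, and against Tom 3 for HF-SC GFP and 0 for b-KC GFP, with 10 between the Co populations, and 0 (GFP) and 3 (Tom) for the difference between cell types. Without a filter 8 were called in HF-SC GFP against Tom, and 3 with only these groups fitted. With a pseudocount of 0.1 there were 2 in b-KC GFP against Tom and 3 for the GFP difference between cell types. The mouse as a replicate block, random or fixed, gave 3 in b-KC GFP against Tom. Among the called changes the random block lost that of Col5a2 in HF-SC Tom and changed no other call, and the fixed block lost 0 of the 37 to which it applies. Depth limits collagens under about 0.0364 FPKM, the level of 3 reads on a 5 kb transcript in the shallowest library.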
